A study of Mus musculus with 24 samples.

Results

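The 40 genes described here are the mouse *Wnt* ligands (19 genes), Frizzled receptors (10), secreted Frizzled-related proteins (4), Dickkopf proteins (3) and R-spondins (4). They were chosen by family name, all 40 had an identifier in the count tables, and they stand among 54446 genes counted. RNA was sequenced from the secondary prosencephalon (SP, the telencephalon and hypothalamus) and from the diencephalon/midbrain/hindbrain (DMH) of 12 mouse embryos at E14.5, which gave 24 libraries. The control embryos were *Tfap2b*+/+ and the mutants *Tfap2b*-/-, littermates from crosses of heterozygous parents, 3 embryos per sex and genotype, and each library came from 1 region of 1 embryo. *Tfap2b* encodes the transcription factor AP-2 beta, and in the mutant allele a PGK-neo cassette sits in an exon of the gene in every cell of the embryo. Female mutant 3 was left out of the study's own tests and is left out here as well, except where named, so that 11 embryos with 22 libraries remained (6 controls and 5 mutants).

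Wnt proteins are secreted, lipid-modified ligands that need a dedicated carrier protein to leave the cell. They bind Frizzled receptors together with a co-receptor, and in the canonical branch of the pathway this stabilises beta-catenin, which then acts with TCF and LEF factors on target genes. Secreted Frizzled-related proteins bind ligands outside the cell, the Dickkopf proteins DKK1 and DKK2 bind the LRP co-receptors, and R-spondins raise the number of receptors on the surface. In the embryonic brain the cortical hem at the edge of the telencephalon, the roof plate and the boundary between midbrain and hindbrain are known sources of Wnt ligands.

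Fragments assigned to genes numbered 24.7 to 66.8 M (median 32.1 M) in the 24 libraries. Levels are given in CPM (counts for every 1 M fragments on genes, with edgeR's library scaling). The floor of detection was set at 3 counts, or 0.0449 to 0.121 CPM, and covers counting error only. *Tfap2b* itself was at 281 to 435 CPM (median 392) in the 6 control DMH libraries and at 50.4 to 56.6 CPM (median 52.7) in the 6 mutant DMH libraries, and the genotypes did not overlap. In SP it was at 3.48 to 4.19 CPM in controls and at 2.75 to 4.72 CPM in mutants. These *Tfap2b* levels include female mutant 3 in both regions. The summed level of 10 telencephalon markers was 2098 to 2771 CPM in SP and 301 to 554 CPM in DMH, that of 10 diencephalon and midbrain markers 41.0 to 190 CPM in SP and 760 to 1678 CPM in DMH, and that of 10 hindbrain and cerebellum markers 32.2 to 48.6 CPM in SP and 242 to 449 CPM in DMH. Both libraries of female control 2 held Y-linked transcripts. The embryo was kept as female, as labelled, in the sex covariate, the female fits and the tests between the sexes, and without it 0 members passed by genotype in female SP and in female DMH. The DMH libraries fell apart in their content of 18 caudal *Hox* genes, which summed to 252 to 495 CPM in 7 libraries and to 0.105 to 1.75 CPM in 4 libraries. Among the SP libraries, male mutant 3 stood low in choroid plexus markers (68.9 CPM, against 273 to 644 CPM in the other 10) and in markers of meninges and mesenchyme (154.5 CPM, against 470 to 708 CPM), and also lowest in those of endothelium (163 CPM, against 229 to 272 CPM) and blood (590 CPM, against 655 to 1120 CPM). SP male control 1 stood high in diencephalon and midbrain markers (190 CPM, against 41.0 to 85.9 CPM).

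Most members were expressed. The median over 11 embryos reached 1 CPM in SP for 28 of the 40 members and in DMH for 33, and 7 members stayed under 1 CPM in both regions, namely *Wnt2*, *Wnt8a*, *Wnt10a*, *Wnt10b*, *Wnt11*, *Wnt16* and *Rspo4*. All 10 Frizzled receptors were above 1 CPM in both regions. Levels of different genes were compared only per kb of exon. Among the receptors *Fzd3*, which is known for its part in axon guidance, held the highest median in both regions, 35.4 CPM per kb in SP and 35.7 CPM per kb in DMH. Among the modulators *Sfrp1* led in SP at 67.1 CPM per kb, the highest median of all 40 members there, and *Sfrp2* led in DMH at 16.4 CPM per kb, just over *Sfrp1* at 15.4 CPM per kb.

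The ligands that made up the Wnt transcript pool differed between the regions. Summed over the 19 ligands, the level was 36.2 to 69.9 CPM per kb (median 66.0) in SP and 32.7 to 53.6 CPM per kb (median 38.8) in DMH. *Wnt7a* and *Wnt7b*, a pair of closely related ligands known for their role in brain blood vessel growth, together held 69.9 to 85.9% of that sum in SP and 37.6 to 52.9% in DMH. In DMH the rest was spread over more ligands, with a median share of 17% for *Wnt5a*, the classical non-canonical ligand, and of 13.3% for *Wnt3*. SP male mutant 1 gave the lowest sum and the lowest share in SP, and the other 10 SP libraries were at 53.8 to 69.9 CPM per kb and at 72.3 to 85.9%. This library also had the most unmapped (9.98%, against 5.46 to 6.78% in the other 10) and multimapping fragments (7.85%, against 4.96 to 5.79%), and their part in its levels was not tested. These shares are descriptions of levels over 11 libraries a region, in which fewer cells of a type and less RNA per cell cannot be told apart.

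**Figure D1:**
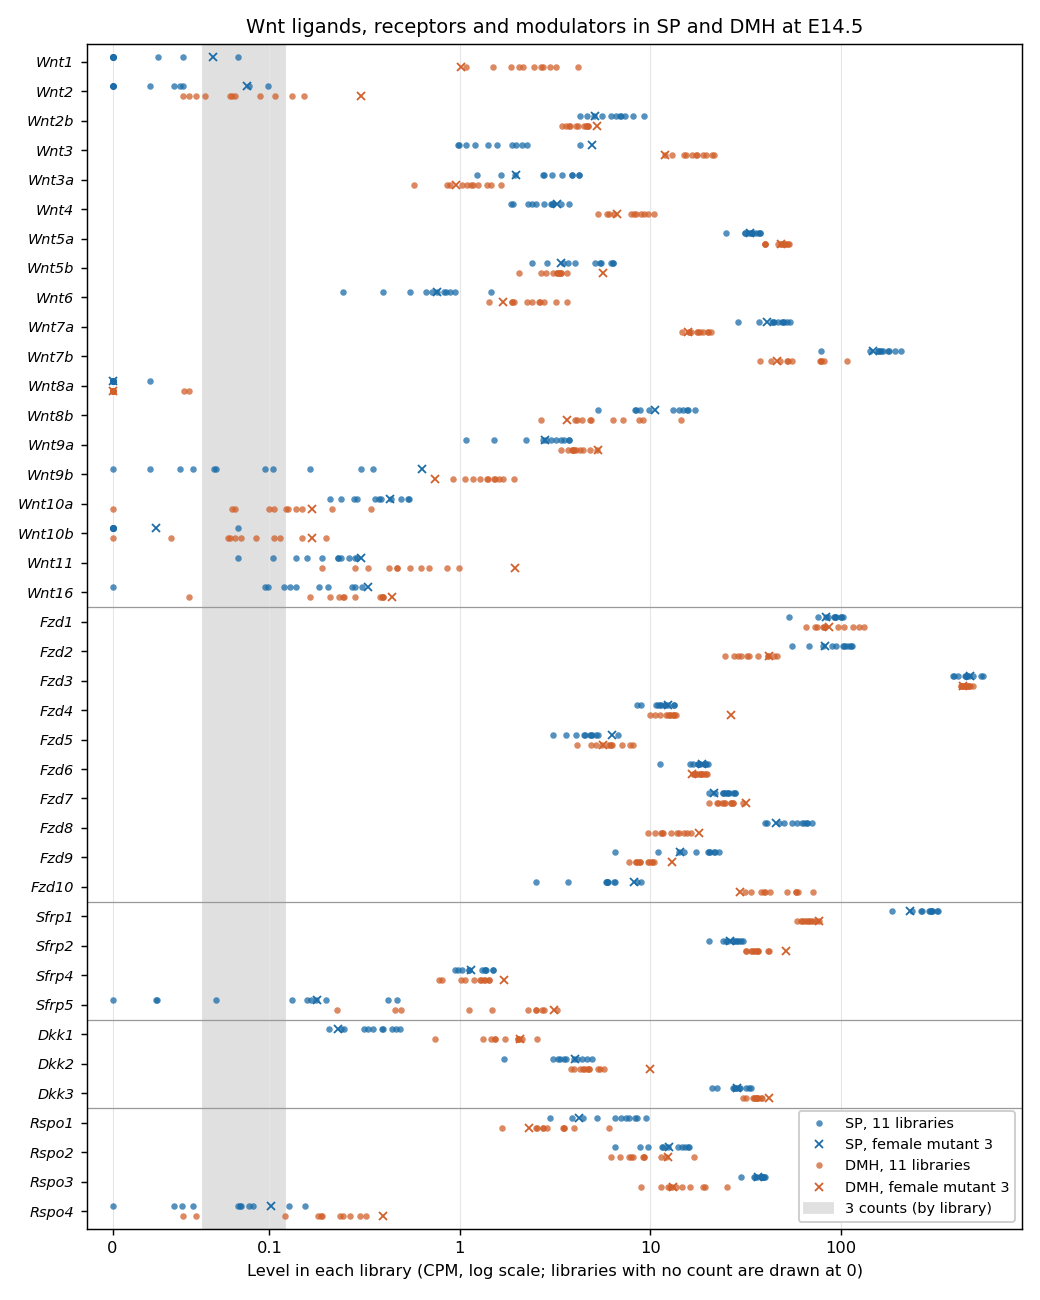
Level of each of the 40 members in each library (horizontal axis, CPM on a log scale; vertical axis, members grouped by family). Points are the 11 SP and 11 DMH libraries, crosses are the 2 libraries of female mutant 3, and the grey band is the range of 3 counts. *Wnt1*, *Wnt3*, *Wnt4*, *Wnt5a*, *Wnt9b*, *Fzd10*, *Sfrp2* and *Dkk1* lie higher in every DMH point than in any SP point, and *Wnt7a*, *Fzd2*, *Fzd8*, *Sfrp1* and *Rspo3* lie lower.

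DMH was then compared with SP over the 11 embryos, to ask which members mark one region. With edgeR's quasi-likelihood test, a false discovery rate (FDR) under 0.05 and a log2 fold change beyond 1, 16 of the 33 members tested were differentially expressed, whereas 14.4% of all 16455 genes tested were. Of these, 8 were higher in DMH (background 9.36%) and 8 were lower (background 5.01%). Of the 8 higher members, *Wnt1*, *Wnt9b* and *Sfrp5* entered the test through DMH alone, with SP counts at or near the floor. A difference was thus built into their selection, and they are described by their counts. *Dkk1*, at 6 to 19 counts in the SP libraries, also passed the low-count filter through DMH alone. *Wnt6* did so as well, short in SP by 1 library, male mutant 3 at 7 counts. Part of their difference was built in too, and both are described by levels and fitted changes without an FDR. The other 17 members tested did not pass both thresholds, and 7 members were too low to be tested. The median log2 change of the 33 members was 0.04, beside 0.00 over all genes, and 74.1% of all genes had an unadjusted p under 0.05.

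Among the ligands, 5 were higher in DMH and 3 were lower, of 13 tested. *Wnt1*, a ligand of the roof plate and the midbrain-hindbrain boundary, was essentially a DMH gene, with 0 to 2 counts in each SP library (8 of 11 at 0) and 42 to 122 counts, or 1.08 to 4.18 CPM (median 2.44), in each DMH library. With all SP libraries at or under the floor, a fitted fold change has no fixed meaning, so the summed counts were used, 879 in DMH and 4 in SP, which is a ratio of 216 with an exact 95% binomial interval of 84.2 to 796 for counting error only. Of the 4 SP counts 2 came from female control 2, and the fitted log2 change of 7.38, which is no bound, was 8.01 without that embryo and 4.44 with unstranded counts. *Wnt9b* lies next to *Wnt3* on chromosome 11 with 24.3 kb between the genes, and both were higher in DMH. *Wnt3* (chr11:103774150-103817957) was at 0.980 CPM in its lowest, 1.56 CPM in its median and 4.26 CPM in its highest SP library, and at 11.9, 17.4 and 21.5 CPM in DMH. Its log2 fold change was 3.24 (SE 0.20, FDR 6.43e-13). The highest SP level of *Wnt3* came from male control 1, the library with the most diencephalon and midbrain markers, and the part of those markers in the result was not tested. *Wnt9b* (chr11:103727364-103749821) was at 0 to 0.350 CPM (median 0.0521) in SP, at or under 3 counts in 8 of 11 libraries, and at 0.924 to 1.93 CPM (median 1.40) in DMH, and all DMH libraries lay above all SP libraries. It passed the low-count filter through DMH alone, and its summed counts give a ratio of 13.3 (exact 95% binomial interval 9.58 to 18.9, counting error only). The fitted log2 change, 3.67, moved from 3.06 with female mutant 3 added and 3.16 in controls to 4.51 in mutants.

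*Wnt4* and *Wnt6* showed smaller differences in the same direction. *Wnt4* (chr4:137277489-137299726) was at 1.85 to 3.73 CPM (median 2.76) in SP and at 5.33 to 10.4 CPM (median 8.26) in DMH, with a log2 fold change of 1.51 (SE 0.10, FDR 5.72e-12), and the regions did not overlap. *Wnt6* (chr1:74771892-74785322) was at 0.244 to 1.46 CPM (median 0.755) in SP and at 1.42 to 3.66 CPM (median 2.38) in DMH. Its fitted log2 change was 1.66 (SE 0.19), and it passed the low-count filter through DMH alone, short in SP by male mutant 3. Its highest SP library just reached its lowest DMH library. The ligands that were lower in DMH were *Wnt3a*, a canonical ligand of the cortical hem, *Wnt7a* and *Wnt7b*, by log2 changes between -1.39 and -1.36. *Wnt7b* was at 79.1 to 207 CPM (median 162) in SP and at 37.7 to 108 CPM (median 55.3) in DMH. SP male mutant 1 was the library at 79.1 CPM, the library with the most unmapped fragments, and the other 10 SP libraries started at 142 CPM. Without male mutant 1, 15 members differed between the regions, and *Wnt7b* was still among them, as in 21 of 21 fits. *Wnt7a* was at 29.0 to 54.1 CPM (median 46.6) in SP and at 14.6 to 20.8 CPM (median 17.7) in DMH, without overlap. *Wnt8b*, another ligand of the hem, did not reach the fold threshold (log2 change -0.95), but did in 4 of 21 fits with other settings or samples, with -1.18 in controls and -1.16 without the embryos with few *Hox* counts. *Wnt5a* had all DMH libraries (40.04 to 53.7 CPM) above all SP libraries (25 to 37.8 CPM), yet its log2 change of 0.48 is also under the threshold. *Wnt2b*, *Wnt5b* and *Wnt9a* ranged from -0.63 to 0.55.

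The upstream sequence of the ligands higher in DMH is shown for *Wnt3*, *Wnt9b*, *Wnt6* and *Wnt1*, beside the letters GCCNNNGGC that AP-2 proteins are known to bind. Sequences are the 250 bases before the RefSeq transcription start on GRCm38.p6, read 5′ to 3′ on the strand of the gene, in lower case with each match of GCCNNNGGC in capitals.
*Wnt3*, chr11:103773925-103774174, + strand: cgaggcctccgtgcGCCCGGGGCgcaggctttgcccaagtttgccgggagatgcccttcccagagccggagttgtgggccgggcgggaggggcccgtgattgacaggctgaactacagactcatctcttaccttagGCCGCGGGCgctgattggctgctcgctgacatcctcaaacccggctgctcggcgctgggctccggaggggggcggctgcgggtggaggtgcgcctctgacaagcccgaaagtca
*Wnt9b*, chr11:103749822-103750071, - strand: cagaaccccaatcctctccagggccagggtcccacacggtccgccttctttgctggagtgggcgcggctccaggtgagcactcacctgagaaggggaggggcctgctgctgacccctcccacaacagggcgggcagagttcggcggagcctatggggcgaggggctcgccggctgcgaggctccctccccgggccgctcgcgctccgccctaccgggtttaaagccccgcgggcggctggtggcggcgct
*Wnt6*, chr1:74771642-74771891, + strand: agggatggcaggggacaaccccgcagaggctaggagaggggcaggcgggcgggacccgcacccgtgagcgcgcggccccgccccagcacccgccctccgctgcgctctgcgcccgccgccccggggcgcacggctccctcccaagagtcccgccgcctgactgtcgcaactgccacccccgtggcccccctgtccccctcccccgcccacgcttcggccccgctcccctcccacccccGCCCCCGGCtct
*Wnt1*, chr15:98789607-98789856, + strand: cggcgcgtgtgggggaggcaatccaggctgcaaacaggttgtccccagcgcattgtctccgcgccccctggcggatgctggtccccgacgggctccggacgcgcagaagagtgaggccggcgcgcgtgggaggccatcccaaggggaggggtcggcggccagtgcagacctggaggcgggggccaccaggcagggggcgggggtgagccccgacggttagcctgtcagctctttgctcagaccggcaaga
The window of *Wnt4*, the other ligand higher in DMH, overlaps the annotated gene and is not shown, and holds 1 match. The end of the shown *Wnt3* window also lies within the annotated gene, which starts at base 103774150. The *Wnt3* window holds 2 matches, the *Wnt6* window 1, and the windows of *Wnt9b* and *Wnt1* hold 0. RefSeq windows were read for 27 members (30 windows). GCCNNNGGC, which reads the same on both strands, was found in 13 of the 30 windows, against 13.7% of 32851 windows of all genes. The member windows had a median GC content of 68.8% and all windows 52.4%, and the part of GC content in this share was not tested. The TCF letters, CTTTG followed by AA, AT, TA or TT and searched on both strands, were found in 4 of the 30 member windows and in 14.8% of all windows. Of the 8 members higher in DMH, all with a window, 4 held GCCNNNGGC, and of the 3 members lower in DMH that have a window, 1 did. A match is a description of these letters and says nothing of binding.

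Among the 10 receptors, 1 was higher in DMH, 2 were lower, and 7 did not pass the thresholds. *Fzd10* (chr5:128600844-128604093), a receptor of the dorsal neural tube, was at 2.51 to 8.94 CPM (median 5.94) in SP and at 31.3 to 71.9 CPM (median 42.7) in DMH. No library of a region entered the range of the other, and the log2 fold change was 2.94 (SE 0.16, FDR 4.68e-14). *Fzd8*, expressed in the forebrain, was at 40.1 to 70.3 CPM (median 58.8) in SP and at 9.71 to 16.3 CPM (median 12.9) in DMH, with a log2 fold change of -2.13 (SE 0.07, FDR 3.15e-17). *Fzd2* was at 55.5 to 115 CPM (median 103) in SP and at 24.8 to 46.0 CPM (median 33) in DMH, a log2 change of -1.44. *Fzd9*, which lies close to the threshold, had a log2 change of -0.91. *Fzd1*, *Fzd3*, *Fzd4*, *Fzd6* and *Fzd7* lay between -0.03 and 0.10, and *Fzd5* at 0.36. For *Fzd3*, at 387 to 555 CPM in SP and 427 to 495 CPM in DMH, the SE of 0.05 gives an interval of -0.13 to 0.06.

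Of the secreted modulators tested, 2 were higher in DMH, 3 were lower and 5 did not pass. *Sfrp1* (chr8:23411502-23449632) was at 186 to 322 CPM (median 293) in SP and at 59.1 to 77.1 CPM (median 67.5) in DMH, with a log2 fold change of -2.06 (SE 0.07, FDR 5.22e-17). *Sfrp5* (chr19:42197971-42202252) went the other way, from 0 to 0.467 CPM (median 0.158) in SP to 0.227 to 3.24 CPM (median 2.28) in DMH. It passed the low-count filter through DMH alone, with 4 of 11 SP libraries at or under 3 counts, and its summed counts give a ratio of 12.2 (exact 95% binomial interval 9.33 to 16.2, counting error only), with a fitted log2 change of 3.44. The ranges of *Sfrp5* overlapped in the DMH libraries of female control 1 and female mutant 2, both with few caudal *Hox* counts. *Sfrp2* was at 20.4 to 30.7 CPM in SP and at 31.7 to 42.2 CPM in DMH, without overlap but with a log2 change of only 0.41. *Dkk1* (chr19:30545863-30549665), an antagonist of the canonical pathway, was at 0.205 to 0.485 CPM (median 0.350) in SP and at 0.743 to 2.53 CPM (median 1.72) in DMH. It passed the low-count filter through DMH alone, with 6 to 19 counts in the SP libraries, and its fitted log2 change was 2.26 (SE 0.17). *Dkk2* and *Dkk3* differed by 0.34 and 0.32. Of the R-spondins, *Rspo3* (-1.35) and *Rspo1* (-1.03) were lower in DMH, and *Rspo2* (-0.40) did not pass. *Rspo3* was at 29.8 to 40.03 CPM (median 38.6) in SP and at 8.95 to 25.2 CPM (median 13.7) in DMH, without overlap.

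**Figure D2:**
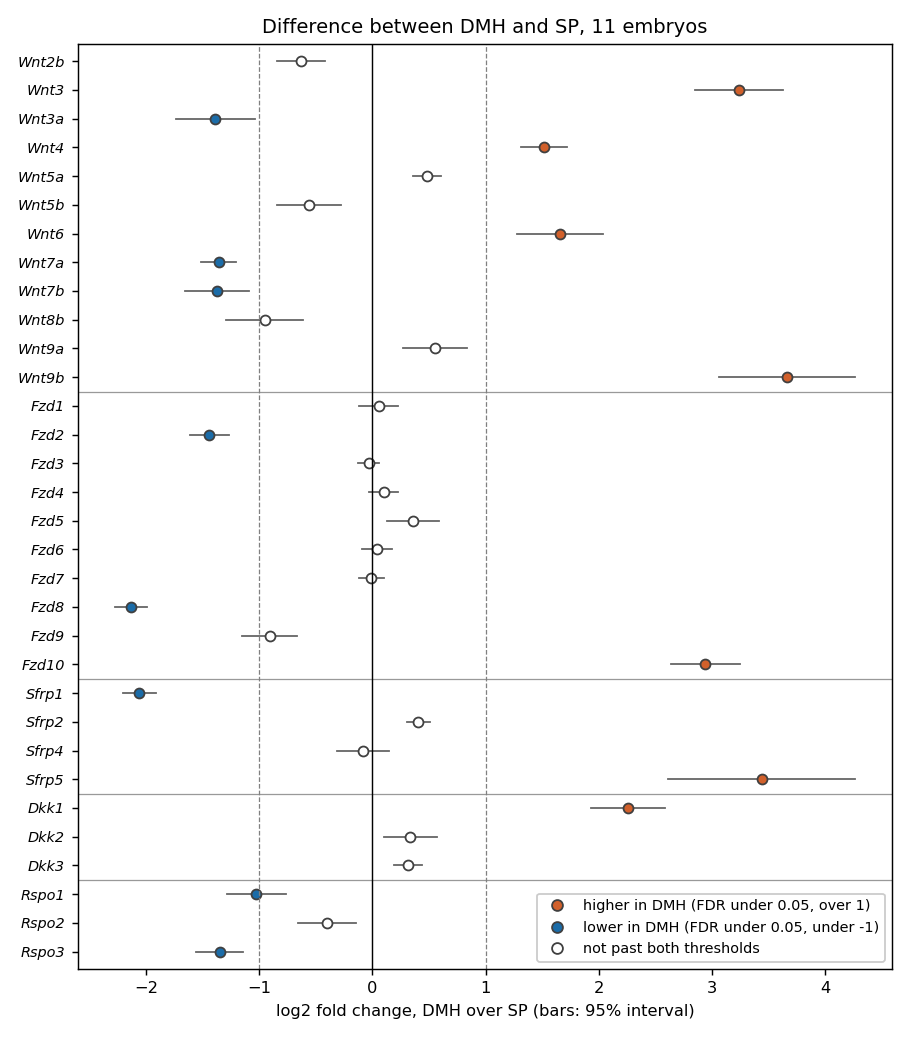
Log2 fold change of DMH over SP for 32 members (horizontal axis; bars are 95% intervals), grouped by family; *Wnt1*, at or under the floor in SP, is not drawn. Filled points passed the FDR and fold thresholds. *Wnt3* (3.24) and *Fzd10* (2.94) lie to the right and *Fzd8* (-2.13) and *Sfrp1* (-2.06) to the left, and the positions of *Wnt9b* and *Sfrp5* rest on SP counts near the floor.

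Counting ranges in place of the test, 8 members had every DMH library above every SP library and 5 had every one below, 13 of the 33 tested. Of all genes tested, 27.5% separated in this way, 15.1% above and 12.4% below. Of the 8 members above, *Wnt1*, *Wnt9b* and *Dkk1* passed the low-count filter through DMH alone, so their separation was partly built into their selection. Choroid plexus markers also moved with region (5 of 11 higher in DMH, summed level 68.9 to 644 CPM in SP and 272 to 916 CPM in DMH), as did markers of meninges and mesenchyme (3 of 10 higher, 154.5 to 708 CPM and 721 to 1203 CPM), with no marker of either list at 0, and their part in the members' differences was not tested. *Rspo1*, the member nearest the threshold, was past it in 18 of 21 fits with other settings or samples.

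Other genes of the pathway differed between the regions as well. Of 58 such genes, 54 were tested, 11 were higher in DMH and 3 were lower, beside 9.36% and 5.01% of all genes. Among genes of Wnt secretion and other extracellular inhibitors, 4 of 10 were higher and 0 were lower (median log2 change 0.72), led by *Dkkl1* and *Notum*. *Dkkl1* was at 0.950 ± 0.350 CPM in DMH and 0.156 ± 0.0512 CPM in SP (SD, n = 11), with a fitted change of 2.57. It passed the low-count filter through DMH alone, so a difference was built into its selection. *Notum* (1.87, SE 0.21) is an extracellular enzyme that inactivates Wnt ligands. The others were *Wif1*, a secreted Wnt inhibitor, and *Wls*, the Wnt carrier protein, at 106 ± 9.35 CPM in DMH and 44.5 ± 6.54 CPM in SP. Among co-receptors and R-spondin receptors 3 of 12 were higher and 1 was lower, led by the R-spondin receptors *Lgr5* (2.53, SE 0.13) and *Lgr4* (1.46, SE 0.06). The others were *Lgr6* and, lower in DMH, *Ror2*, a receptor of the non-canonical branch. Among 18 cytoplasmic and nuclear genes 2 were higher and 1 was lower, with *Tcf7l2*, a nuclear partner of beta-catenin and a marker of the thalamus, at 680 ± 238 CPM in DMH and 39.4 ± 38.1 CPM in SP (log2 change 4.17, SE 0.40), *Lef1* (1.22, SE 0.09) and *Tcf7l1* lower in DMH. Of 7 feedback targets only *Sp5* (1.52, SE 0.14) passed. Of 7 planar cell polarity genes *Celsr1* was lower in DMH (-2.24, SE 0.07) and *Prickle2* higher (1.44, SE 0.05). Genes after the first pair of each list were named after their values were seen.

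The members were compared between the 7 libraries with many and the 4 with few caudal *Hox* counts, with sex and genotype as covariates. This split came from measured *Hox* levels, not from the labels. How much caudal tissue a piece held and how much its cells expressed these genes cannot be told apart. The few class held 3 mutants and 1 control whereas the many class held 2 mutants and 5 controls. No member was differentially expressed at an FDR under 0.05 and a log2 change beyond 1, of 35 tested, where 0.955% of all 16963 genes were (0.92% higher and 0.0354% lower with many *Hox* counts). At the looser thresholds used for genotype below, 3 members passed, *Wnt4*, *Wnt11* and *Wnt8b*, where 6.98% of all genes did. DESeq2 called 0 members too, and 13 had an unadjusted p under 0.05 in edgeR, beside 28.3% of all genes. At the same FDR with no fold threshold 5 members passed (background 9.3%), and they are named here after their values were seen. *Fzd1* was at 65.9 to 96.9 CPM with many *Hox* counts and at 105 to 132 CPM with few, a log2 change of -0.47 (SE 0.08, FDR 0.0080). *Fzd2* (24.8 to 36.6 CPM against 41.4 to 46.0 CPM, log2 change -0.43) and *Fzd10* (31.3 to 52.4 CPM against 58.5 to 71.9 CPM, log2 change -0.41) lay lower with many *Hox* counts as well. *Wnt4* (7.92 to 10.4 CPM against 5.33 to 6.45 CPM, log2 change 0.55) and *Wnt5a* (48.5 to 53.7 CPM against 40.04 to 46.9 CPM, log2 change 0.26) lay higher.

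In all 5 the classes did not overlap. Female mutant 3, not counted in either class, had many *Hox* counts and stood at 42.1 CPM for *Fzd2*, within the few class, at 29.8 CPM for *Fzd10*, below both classes, and at 6.65 CPM for *Wnt4*, between them. Over all members tested, 10 had every library of the many class below every library of the few class and 2 had every one above, 12 of 35. Of all genes 22.1% separated, 11.4% below and 10.7% above. Beside *Fzd1*, *Fzd2* and *Fzd10* these 10 were *Wnt3*, *Wnt7b*, *Wnt8b*, *Fzd8*, *Dkk1*, *Rspo1* and *Rspo3*. *Wnt8b* was at 2.66 to 6.38 CPM with many and at 7.20 to 14.4 CPM with few *Hox* counts, and *Rspo3* at 8.95 to 14.7 CPM and at 16.1 to 25.2 CPM. *Sfrp5* was at 0.227, 0.456 and 0.491 CPM in the few-*Hox* libraries of female control 1, female mutant 2 and female mutant 1, and at 2.52 CPM in that of male mutant 2, within the 1.12 to 3.24 CPM of the many class. Its log2 change of 1.20 had an SE of 0.62 and passed no threshold, but without male mutant 2 it was 2.68 (SE 0.53, FDR 0.040). The diencephalon and midbrain markers summed to 760 to 1052 CPM in the many class and to 1302 to 1678 CPM in the few class, and the hindbrain and cerebellum markers to 352 to 449 CPM and to 242 to 318 CPM. In the same order, choroid plexus markers summed to 664 to 916 CPM and to 272 to 679 CPM. Those of meninges and mesenchyme summed to 896 to 1203 CPM and to 721 to 879 CPM, and those of the telencephalon to 301 to 554 CPM and to 426 to 533 CPM. Their part in the members' levels was not tested.

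**Figure D3:**
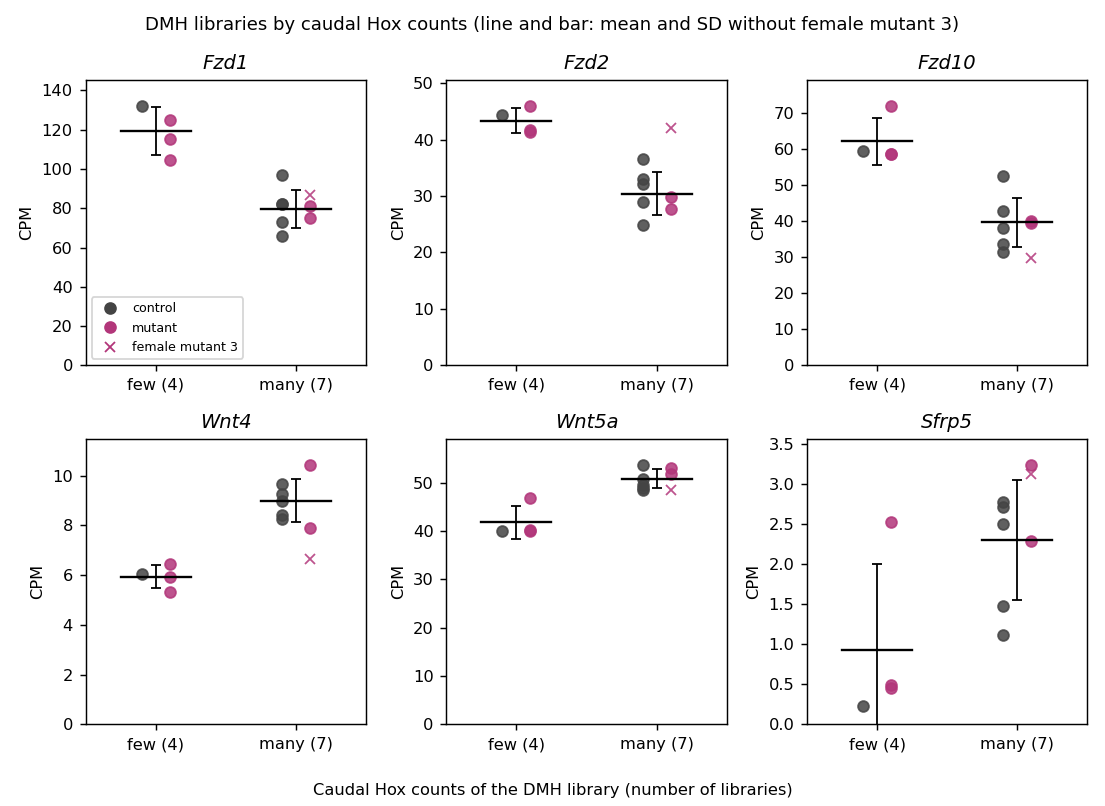
Level (CPM) of *Fzd1*, *Fzd2*, *Fzd10*, *Wnt4*, *Wnt5a* and *Sfrp5* in each DMH library, by class of caudal *Hox* counts (4 libraries with few, 7 with many) and genotype (dark grey, control; magenta, mutant); line and bar give the mean and SD, and the cross is female mutant 3, not part of either. In the 5 panels other than *Sfrp5* the dots of the classes do not overlap, and the control of the few class lies with the 3 mutants there.

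*Tfap2b*-/- mutants were compared with *Tfap2b*+/+ controls in each sex and region at the study's thresholds, an FDR under 0.2 and a log2 change beyond 0.5. No member was differentially expressed in edgeR in any of these 4 comparisons, of 31 members tested in female and in male SP, 34 in female DMH and 35 in male DMH. The background was low as well, 0.0181% of genes in female SP, 0.0% in male SP, 0.00596% in female DMH and 0.0236% in male DMH. An unadjusted p under 0.05 was found for 0 members in female SP (background 2.58%) and male SP (background 3.65%), for 5 in female DMH (background 8.9%) and for 7 in male DMH (background 2.89%). DESeq2 called 0 members in all 4.

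With both sexes in 1 fit and sex as a covariate, 0 of 31 members passed in SP (background 0.0%) and 0 of 34 in DMH (background 0.0478%), and DESeq2 called 0 in both. In SP 4 members had an unadjusted p under 0.05 (background 4.84%). *Sfrp2*, with the smallest p, was at 20.4 to 28.4 CPM (median 26.1) in SP controls and at 25.5 to 30.7 CPM (median 29.1) in SP mutants, a log2 change of 0.19 (SE 0.07, FDR 0.925). *Fzd4* differed by -0.24 (SE 0.10) and *Sfrp1* by 0.24 (SE 0.10), both at an FDR of 0.925. The lowest *Fzd4* level, 8.54 CPM, was that of SP male mutant 3, which was also lowest in endothelial markers, and their part was not tested. The fourth was *Wnt3*, at 1.20 to 4.26 CPM in controls and at 0.980 to 1.98 CPM in mutants. SP male mutant 3, low in choroid plexus and meningeal markers, was the lowest of 11 libraries for 14 of the 28 members at 1 CPM or more. No genotype group of SP or DMH lay wholly above or below the other for any member tested. Of all genes tested, 0.451% separated in SP (0.183% above and 0.268% below) and 0.173% in DMH (0.0956% above and 0.0776% below).

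In DMH 10 members had an unadjusted p under 0.05, all higher in mutants, beside 15.2% of all genes. *Rspo3* was at 8.95 to 18.9 CPM (median 12.6) in the 6 controls and at 13.7 to 25.2 CPM (median 16.1) in the 5 mutants, with a log2 change of 0.49 (SE 0.13, FDR 0.323). The 3 highest mutants and the highest control are libraries with few *Hox* counts. *Wnt3* was at 11.9 to 21.5 CPM (median 15.2) in controls and at 16.5 to 21.1 CPM (median 18.9) in mutants, a log2 change of 0.29 (SE 0.09, FDR 0.323). *Fzd10* was at 31.3 to 59.3 CPM (median 40.4) and at 39.4 to 71.9 CPM (median 58.5), a log2 change of 0.37 (SE 0.12, FDR 0.323). The genotypes overlapped in all of these. The remaining 7 were *Wnt1*, *Wnt7b*, *Wnt8b*, *Fzd5*, *Fzd7*, *Rspo1* and *Rspo2*, with log2 changes of 0.18 to 0.65, named after their values were seen. DMH female mutant 2 was the highest of 11 libraries for 12 of the 33 members at 1 CPM or more, among them *Wnt1*, *Wnt7b*, *Wnt8b*, *Fzd10*, *Rspo1*, *Rspo2* and *Rspo3*.

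Genotype and *Hox* content were partly aligned in the DMH libraries, so the class of caudal *Hox* counts was added to the fit. The number of members with an unadjusted p under 0.05 was then 1 of 34 (2.26% of all genes), but it was 4 of 36 (1.6% of all genes) in the libraries with many *Hox* counts alone and 5 of 34 (3.62%) with all samples and the class. With the class added, the median log2 change of the members went from 0.10 to 0.03, and *Rspo3* was at 0.31, *Wnt3* at 0.18 and *Fzd10* at 0.17, each at an FDR of 1.0. *Sfrp5* went from -0.30 to 0.30 on adding the class, and passed in neither fit. Among the libraries with many *Hox* counts alone, 2 mutants and 5 controls, *Rspo3* differed by 0.33 (SE 0.13), *Wnt3* by 0.33 (SE 0.11) and *Fzd10* by 0.19 (SE 0.10). With female mutant 3 added, *Rspo3* was at 0.22 and *Wnt3* at 0.01 in the fit with the class, and at 0.24 and 0.05 in the libraries with many *Hox* counts. *Wnt1* was at 0.35 with the class and at -0.03 with the class and female mutant 3. *Fzd10* turned to -0.0413 when female mutant 3 was added to the fit with the class, and to -0.11 when it was added to the libraries with many *Hox* counts. The DMH library of that embryo held 3234 CPM of meningeal and mesenchymal, 796 CPM of muscle and 1736 CPM of cartilage markers, where the others reached at most 1203, 9.13 and 88.9 CPM. Leaving out 1 library also mattered. Without female control 1, the only control with few *Hox* counts, 5 members passed in female DMH, *Rspo3* (0.84), *Rspo2* (0.82), *Wnt8b* (0.97), *Wnt4* (-0.64) and *Sfrp5* (-2.13), where 6.63% of all genes did. Choroid plexus markers in DMH summed to 272 and 395 CPM in female mutants 1 and 2 and to 739 and 715 CPM in female controls 2 and 3. Their part was not tested. Without male mutant 1, 4 members passed in DMH of both sexes, *Rspo3* (0.51), *Rspo2* (0.51), *Wnt1* (0.63) and *Wnt8b* (0.72), where 3.06% of all genes did.

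**Figure D4:**
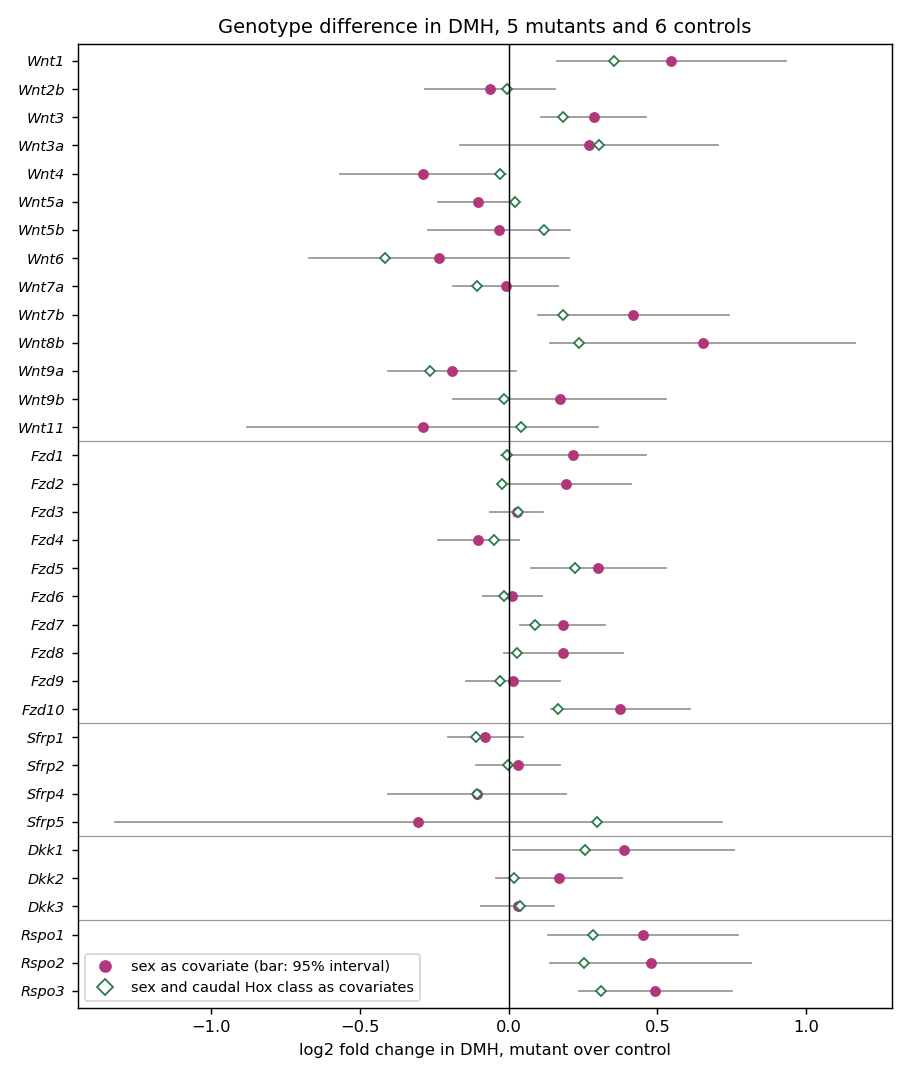
Log2 fold change of mutants over controls in DMH of both sexes (horizontal axis) for 34 members. Filled points with 95% intervals are from the fit with sex as covariate, open diamonds from the fit that also holds the class of caudal *Hox* counts. No member passed the thresholds in either fit, and *Rspo3* goes from 0.49 to 0.31 and *Fzd10* from 0.37 to 0.17.

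The difference of the genotype change between the sexes and between the regions was tested directly. No member passed for sex in SP (0 of 32 tested, background 0.0%) or in DMH (0 of 35, background 0.0%), nor for region (0 of 35, background 0.00573%), with 0 (background 2.21%), 2 (background 2.0%) and 4 members (background 2.04%) at an unadjusted p under 0.05 in edgeR. DESeq2 called 0 members in all of these. *Fzd5*, *Fzd7*, *Wnt6* and *Wnt10a* lie on chromosome 1, as *Tfap2b* does, 40.2 to 55.6 Mb from it, and the tested ones passed in no genotype comparison. None of the 58 other pathway genes passed in a genotype comparison or in that of *Hox* content, at most 17 of 55 with an unadjusted p under 0.05 for genotype in DMH of both sexes (15.2% of all genes) and 25 of 56 for *Hox* content (28.3% of all genes).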

How the data were processed

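RNA-seq libraries were polyA-selected and stranded. Per the submitters' processing notes, reads were handled with cutadapt 2.4, STAR 2.6.1d and edgeR, against mm10 (GRCm38.p6). The annotation release is not given in the sources used here. The deposited values are raw read counts per gene as written by STAR, made by the authors, and the reverse-strand column was used. The 4 lines that name no gene were left out: unmapped (5.46 to 9.98% of fragments), multimapping (4.96 to 7.85%), no feature (4.68 to 7.46%) and ambiguous (1.10 to 1.62%). A symbol was matched for 54409 of 54446 identifiers, and gene positions and exon lengths came from a GRCm38 annotation. No 2 libraries of a condition agreed within sampling noise (lowest chi-square per gene 9.62 over 24 pairs).

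Counts were tested with edgeR 4.0.16 in R 4.3.3 (filterByExpr, TMM, robust quasi-likelihood fit, Benjamini-Hochberg FDR over all genes tested). SEs were recovered from each fold change and its F statistic, and 95% intervals treat the estimates as normal. Female mutant 3 was left out as in the study. Region and *Hox* comparisons had sex and genotype as covariates and called genes at an FDR under 0.05 and a log2 change over 1, while genotype comparisons used the study's 0.2 and 0.5. A DMH library with under 100 CPM summed over the caudal *Hox* genes was put in the few class. DESeq2 1.42.0, other scaling, no low-count filter, unstranded counts, blocks and left-out libraries were tried. Scripts were tested on simulated counts. Statistics are given for the 10 called members of largest change by region, for called members by *Hox* content and genotype, and for the 3 members of smallest p in each genotype fit of both sexes. By region, *Wnt1*, *Wnt9b*, *Sfrp5*, *Dkk1* and *Wnt6* passed the filter through DMH alone. The first 3 of these are given by count ratios in place of the test, *Dkk1* and *Wnt6* by fitted changes without an FDR.

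The SP and DMH libraries of 1 embryo are paired by the labels (correlation of deviations 0.0481 to 0.380, over 0.1 in 10 of 12 embryos). Each library is from a separate embryo within a region, so p-values there measure the spread between embryos. The region fit did not hold the embryo as a block. The members and gene lists were chosen with earlier results of these data known.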

Additional observations from a re-analysis of the deposited data

Results flagged for a closer look

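Each member was checked in each group of 5 or 6 libraries of 1 genotype and region, 122 combinations of member and group. In 9 of these a library lay far from the rest, where chance alone gives about 5% of independent combinations. The combinations share the same libraries and are not independent. In SP, *Wnt3* was at 4.26 CPM in male control 1 (the other controls 1.20 to 2.24 CPM), *Fzd10* at 8.94 CPM in female control 2 (5.91 to 6.56 CPM), and *Dkk2* at 4.93 CPM in female control 3 (3.08 to 3.61 CPM). *Dkk2* was also low in SP male mutant 3, at 1.71 CPM (the other mutants 3.98 to 4.64 CPM), the library low in choroid plexus and meningeal markers. In DMH, female mutant 2 stood above the other mutants for *Wnt6* (3.19 CPM, against 1.87 to 2.25 CPM), *Rspo1* (6.04 CPM, against 2.73 to 3.52 CPM) and *Rspo2* (16.98 CPM, against 9.12 to 11.3 CPM). DMH female control 1 stood above the other controls for *Rspo2* (12.0 CPM, against 6.25 to 8.10 CPM) and below them for *Wnt5b* (2.04 CPM, against 3.09 to 3.65 CPM). Both of these DMH libraries held few caudal *Hox* counts.

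No main comparison used the DMH library of female mutant 3. Among members at 1 CPM or more in it, 4 reached at least 1.5 times the highest other DMH library. These were *Fzd4* (26.6 CPM, against 9.97 to 13.6 CPM), *Dkk2* (9.94 CPM, against 3.82 to 5.74 CPM), *Wnt5b* (5.63 CPM, against 2.04 to 3.65 CPM) and *Wnt11* (1.957 CPM, against 0.189 to 0.995 CPM). Under 1 CPM, *Wnt2* did so too (0.303 CPM, against at most 0.151 CPM). The part of the meningeal, muscle and cartilage content of this library in these levels was not tested.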

How the results depend on the processing

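Of the member counts over all comparisons and alternatives, 173 stayed within 1.5 times of the reported count and 7 did not. In every comparison other than that of the regions the reported count was 0, so staying there meant 0 again. The tally is therefore no measure of stability. Between the regions, leaving out 1 embryo gave 15 to 17 members, the embryo as replicate block 16 and DESeq2 16. In female DMH, 1 member passed with no low-count filter, and 0 to 5 passed with 1 library left out (5 without female control 1). In DMH of both sexes it was 0 to 4 (4 without male mutant 1). For *Hox* content 1 member passed with no low-count filter, 3 with all samples, 3 at an FDR under 0.2 and a log2 change over 0.5, and 0 to 1 with 1 library left out (1 without male mutant 2). The cause was not tested. *Fzd10* by genotype in DMH of both sexes reversed to -0.0413 with all samples and the *Hox* class, and to -0.11 in libraries with many *Hox* counts plus female mutant 3, both chosen after seeing the data. With the replicate number as block, replicate block fits called 0 members in all 6 genotype comparisons. Control and mutant libraries of the same number correlated by -0.0949 to 0.479 (over 0.1 in 6 of 12 pairs), so the numbers were not taken as pairs. *Wnt2*, *Wnt8a* and *Wnt10b*, and *Rspo4* in SP, lay near the floor of 3 counts.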
